A study of Mus musculus with 23 samples.

Results

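The D-type cyclins, the kinases they switch on and the inhibitors of those kinases were followed across 6 groups of macrophage arrays. The set was chosen by gene symbol and holds 10 genes: Ccnd1, Ccnd2, Ccnd3, Cdk4, Cdk6, Cdkn1a, Cdkn1b, Cdkn1c, Cdkn2c and Cdkn2d. Of these, 9 had a probe set named for a single gene and are described here, out of 19938 such genes on the array. The probe set of Cdkn1a is annotated to more than 1 gene, so no value is given for it. Where a gene had several probe sets, the one of highest mean over the 23 arrays was used, which concerned Cdkn1b alone.

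The macrophages were differentiated from C57Bl/6 wild-type bone marrow over 6 days in medium with serum and macrophage colony-stimulating factor (M-CSF) at 10 ng/mL. Treatment began 1 to 3 days after M-CSF was taken away, so cells of all groups, vehicle included, were without added M-CSF. The groups were the vehicle bovine serum albumin (BSA) at 125 µM for 5 h (n = 3) and lipopolysaccharide (LPS), a bacterial ligand of the receptor TLR4, at 1 ng/mL for 5 h (n = 4). The other 4 groups (n = 4 each) received 250 µM of oleic acid (OA) or stearic acid (SA) bound to BSA, for either 5 h or 20 h. Both acids have the same chain length, and OA carries a double bond that SA lacks. The labels give 5 h for vehicle and LPS where the series text gives 4 h, and the vehicle was sampled at the early time alone, so setting a 20 h group against it mixes treatment with time. The samples are called replicate wells in the labels and biological replicates in the series text, so p-values rest on the scatter among these arrays, which may be technical only.

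Cells that leave G1 for S phase do so when D cyclins bind Cdk4 or Cdk6 and the complex phosphorylates the retinoblastoma protein, which then releases E2F transcription factors. Inhibitors of the INK4 type, among them Cdkn2c and Cdkn2d, bind Cdk4 and Cdk6 themselves, while the Cip/Kip inhibitors Cdkn1a, Cdkn1b and Cdkn1c bind complexes of cyclin and kinase, mainly those of Cdk2. In macrophages M-CSF is the main mitogen, Ccnd1 is among the genes it induces, and activation by LPS is known to stop the cycle in G1.

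Expression is given as deposited, on a log2 scale, so that a difference of 1 is a 2-fold difference. Levels of different probe sets are not ranked against each other, beyond a rough position relative to the median gene. Array medians lay between 3.98 and 4.12. Replicate 2 of 20 h SA was the least typical array: its genes deviated from their group means with an SD of 0.22, against 0.15 to 0.16 for the remaining replicates of that group. Signal over background was not assessed. Cdkn2c with LPS, at 4.26, lay at the median of all gene means (4.25), and with SA it ran from 4.33 to 5.23. Ccnd2 and Cdkn2d lay under 5.3 on every array outside the LPS group of Ccnd2. Ccnd3 ran from 4.73 to 5.89 over all arrays, and Cdkn1c from 5.14 to 5.96 outside 20 h SA. The sizes of the differences of all these genes are less certain than for Ccnd1, Cdk4, Cdk6 and Cdkn1b.

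**Figure D1:**
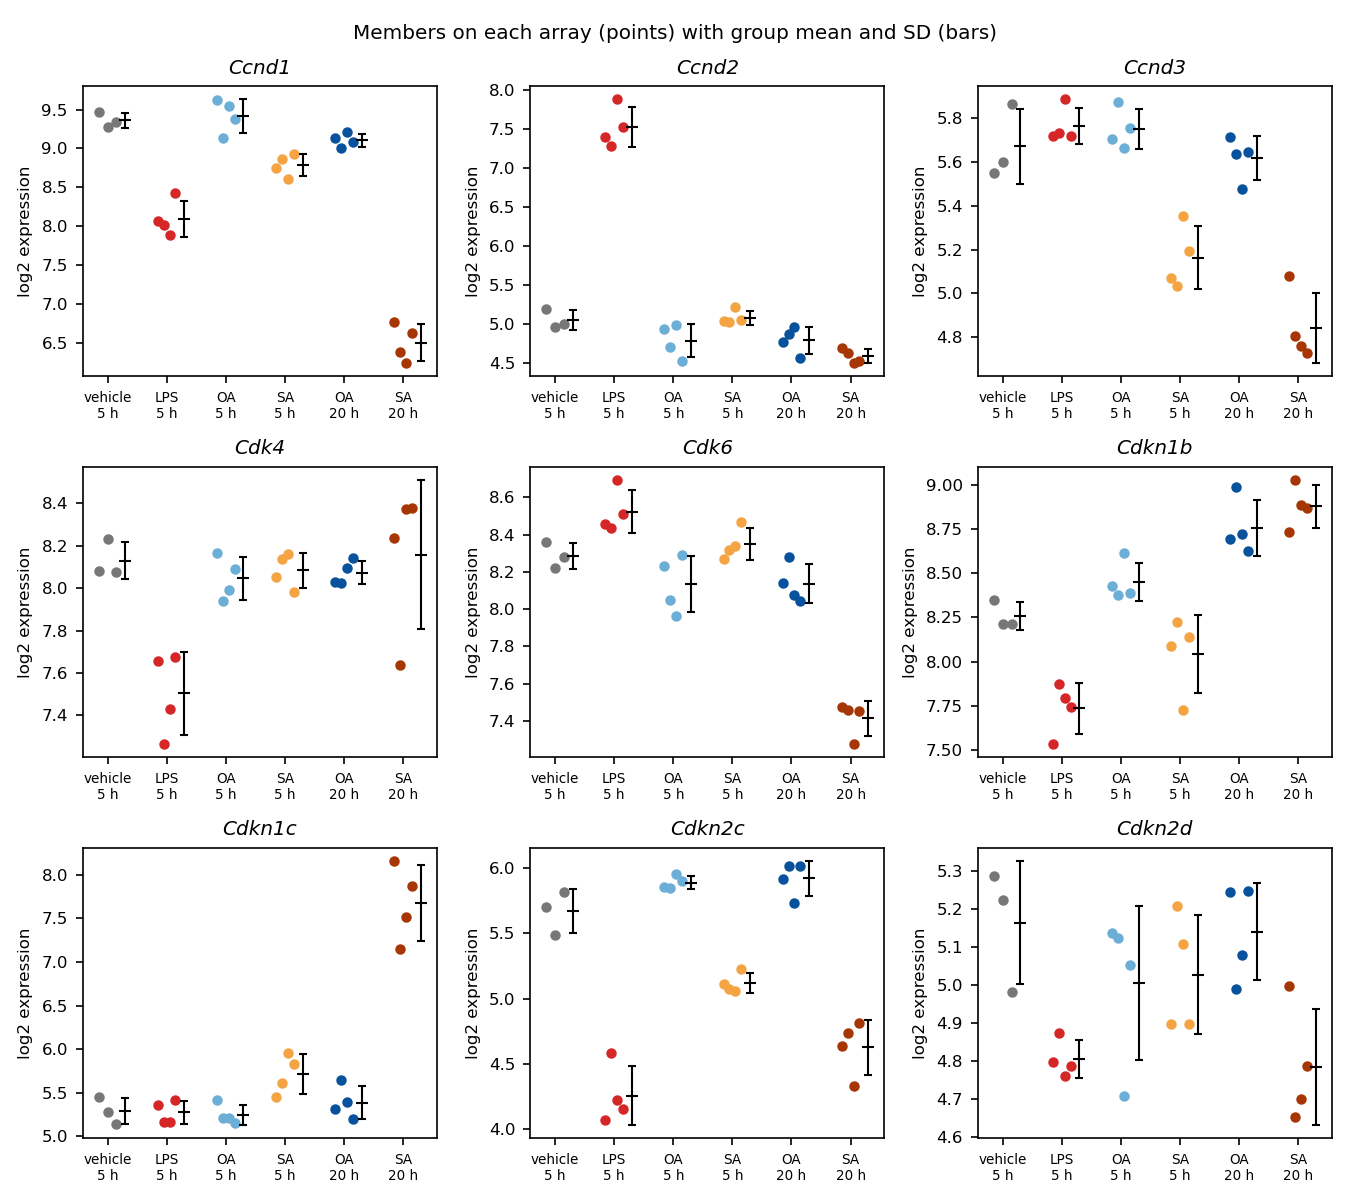
Log2 expression of the 9 measured genes (y axis, a scale of its own in each panel) on each of the 23 arrays (points) in 6 groups (x axis), with the group mean and SD beside the points. Ccnd1 is lowest and Cdkn1c highest on the 4 arrays of 20 h SA, and Ccnd2 is highest on the 4 LPS arrays.

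All 9 genes differed among the 6 groups by limma's moderated F test, with adjusted p values from 1.49e-15 for Ccnd2 to 0.0214 for Cdkn2d, where 35.7% of all genes passed. With each array centred on its median 8 of the 9 passed. The distance from the lowest to the highest group mean was 2.94 for Ccnd2, 2.91 for Ccnd1, 2.43 for Cdkn1c, 1.66 for Cdkn2c and 1.14 for Cdkn1b, against a median of 0.34 over all genes. It was 1.11 for Cdk6, 0.92 for Ccnd3, 0.65 for Cdk4 and 0.38 for Cdkn2d. The genes did not share 1 order of groups. The lowest mean was that of 20 h SA for Ccnd1, Ccnd2, Ccnd3, Cdk6 and Cdkn2d, that of LPS for Cdk4, Cdkn1b and Cdkn2c, and that of 5 h OA for Cdkn1c.

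SA, which is saturated, was set against OA, which has 1 double bond, at matched dose and time. At 20 h 5 of the 9 genes were lower and 1 was higher with SA at an adjusted p under 0.05 in limma, where 16.7% of all genes passed, 8.95% lower and 7.72% higher. Ccnd1, Cdkn2c, Ccnd3, Cdk6 and Cdkn2d fell and Cdkn1c rose, and without replicate 2 of 20 h SA Cdkn2d did not pass (adjusted p = 0.0716). The SA and OA arrays of 20 h did not overlap for 5 of the 9, as for 20.2% of all genes. At 5 h Ccnd1, Ccnd3, Cdkn1b and Cdkn2c fell and none rose, where 5.67% of all genes passed, 2.37% lower and 3.30% higher, and the arrays did not overlap for 6 of the 9 (10.4% of all genes). In all 18 differences between the acids were tested (9 genes at 2 times), and p-values were adjusted over all genes of each comparison. Shares of all genes, throughout, also count dim genes, while all 9 genes of the set had means above the median gene. Without the dimmest 25% of genes, 3574 of 14953 passed between the acids at 20 h, in place of 3324 of 19938. With LPS minus vehicle it was 4631 of 14953, in place of 4464. The share passing was thus higher without dim genes, and none was computed for genes as bright as the set or lists. The change of the SA to OA difference from 5 h to 20 h was tested as an interaction and passed for Ccnd1, Cdk6, Cdkn1b and Cdkn1c, where 4.98% of all genes passed, 1.58% upward and 3.40% downward.

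**Figure D2:**
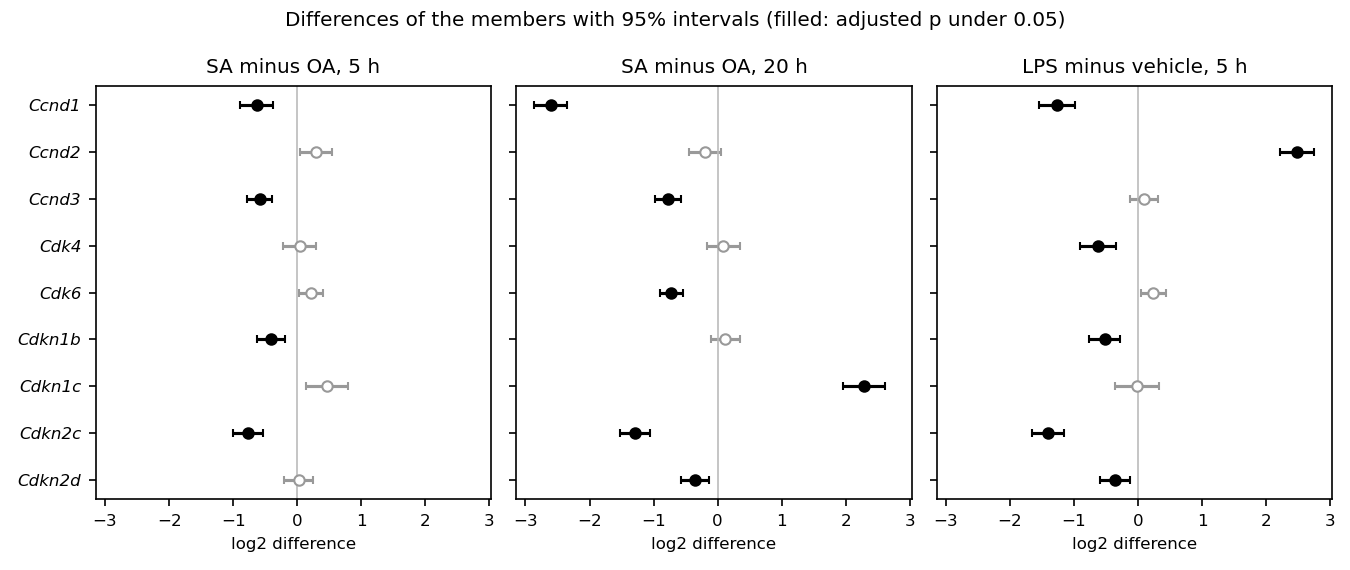
Log2 difference (x axis) of the 9 genes (y axis) for SA minus OA at 5 h, SA minus OA at 20 h and LPS minus vehicle at 5 h, with 95% intervals. Filled points passed an adjusted p of 0.05 in limma: Ccnd1 lies at -0.63, -2.60 and -1.27, Ccnd2 passed with LPS, at 2.48, and Cdkn1c at 20 h with SA, at 2.29.

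Of the D cyclins, Ccnd1 (probe set 10569646) moved most with SA. It stood at 9.47, 9.28 and 9.34 on the vehicle arrays and at 9.62, 9.13, 9.55 and 9.38 with OA at 5 h. With OA at 20 h it stood at 9.13, 9.01, 9.21 and 9.08. The SA arrays read 8.75, 8.87, 8.61 and 8.92 at 5 h and 6.76, 6.38, 6.24 and 6.63 at 20 h. Every SA array thus lay below every vehicle and OA array. The LPS arrays, at 8.06, 8.01, 7.88 and 8.43, lay between the 2 SA groups without overlap, and the 20 h SA arrays were the lowest of all. The difference of SA from OA was -0.63 ± 0.12 (SE, adjusted p = 0.00185, limma) at 5 h, a 1.55-fold fall, and -2.60 ± 0.12 (SE, adjusted p = 1.31e-13) at 20 h, a 6.08-fold fall. The difference changed by -1.97 ± 0.18 (SE, adjusted p = 3.91e-08) between the times. With LPS the gene fell from vehicle by 1.27 on the log2 scale (SE 0.13, adjusted p = 5.93e-08), and SA at 5 h was above LPS by 0.69 ± 0.12 (SE, adjusted p = 0.00013). Both treatments thus lowered it at 5 h, LPS by more. Against vehicle at 5 h, SA gave -0.57 ± 0.13 (SE, adjusted p = 0.0145), a call that was lost without replicate 1 of vehicle (adjusted p = 0.0897) or replicate 3 of 5 h SA (adjusted p = 0.0554). OA at 5 h differed from vehicle by 0.05, with a 95% interval from -0.22 to 0.33. From 5 h to 20 h Ccnd1 fell by 2.29 on the log2 scale with SA (adjusted p = 1.31e-12), while the change with OA was -0.31 (95% interval -0.57 to -0.05, adjusted p = 0.192).

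Ccnd2 (probe set 10548105), a D cyclin induced by several mitogens and cytokines, was high with LPS. It read 7.40, 7.29, 7.88 and 7.53 on the LPS arrays against 5.19, 4.96 and 4.99 with vehicle, a rise of 2.48 ± 0.13 (SE, adjusted p = 1.23e-13) or 5.57-fold. On the fatty acid arrays it ran from 4.50 to 5.21, so no LPS array overlapped any other array. SA at 5 h differed from vehicle by 0.03 (95% interval -0.24 to 0.30), and the direct comparison of SA with LPS at 5 h gave -2.45 ± 0.12 (SE, adjusted p = 3.31e-14). Between the acids the difference was 0.29 (95% interval 0.05 to 0.54, adjusted p = 0.19) at 5 h, with all 4 SA arrays above all 4 OA arrays, and -0.20 (95% interval -0.45 to 0.05, adjusted p = 0.32) at 20 h. With SA it fell by 0.49 on the log2 scale from 5 h to 20 h (adjusted p = 0.00559).

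Ccnd3 (probe set 10445688), the third D cyclin, was lower with SA at both times and stood near vehicle with LPS. It read 5.07, 5.03, 5.35 and 5.19 with SA at 5 h and 5.08, 4.80, 4.76 and 4.73 at 20 h. The vehicle, LPS and OA arrays together ran from 5.48 to 5.89, above every SA array. The difference of SA from OA was -0.59 ± 0.10 (SE, adjusted p = 0.000226) at 5 h and -0.78 ± 0.10 (SE, adjusted p = 1.16e-06) at 20 h, and its change between the times did not pass (-0.19, 95% interval -0.47 to 0.09). Against vehicle the 5 h SA difference was -0.51 ± 0.10 (SE, adjusted p = 0.00419), with an adjusted p of 0.0598 in a fit of these groups alone and 0.0556 without replicate 3 of vehicle. With LPS it was 0.09 (95% interval -0.12 to 0.31), and SA at 5 h was lower than LPS by -0.60 ± 0.10 (SE, adjusted p = 2.86e-05). The 3 D cyclins therefore gave 3 different patterns over the same arrays. Ccnd1 fell with both SA and LPS, and Ccnd3 fell with SA. Ccnd2 rose with LPS and passed between the acids at neither time, though it fell with SA from 5 h to 20 h.

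The kinases Cdk4 (probe set 10366814) and Cdk6 (probe set 10519324), which share the D cyclins as partners, differed from each other in which treatment moved them. For both, the 250 bases before an annotated start are shown because they alone among 8 windows of 6 measured genes hold the E-box CACGTG, a site that Myc binds with its partner Max. No window was available for Ccnd1, Ccnd2 and Cdkn1c, so these genes were not searched. The sequences are from RefSeq on build GRCm38.p6, both on the plus strand, at chr10:127063285-127063534 for Cdk4 and chr5:3343643-3343892 for Cdk6, with each E-box in capitals.
Cdk4: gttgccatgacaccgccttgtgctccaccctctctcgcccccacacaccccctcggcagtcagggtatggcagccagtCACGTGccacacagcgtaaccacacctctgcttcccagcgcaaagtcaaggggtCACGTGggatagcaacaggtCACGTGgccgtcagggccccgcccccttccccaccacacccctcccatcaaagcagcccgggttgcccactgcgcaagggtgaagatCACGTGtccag
Cdk6: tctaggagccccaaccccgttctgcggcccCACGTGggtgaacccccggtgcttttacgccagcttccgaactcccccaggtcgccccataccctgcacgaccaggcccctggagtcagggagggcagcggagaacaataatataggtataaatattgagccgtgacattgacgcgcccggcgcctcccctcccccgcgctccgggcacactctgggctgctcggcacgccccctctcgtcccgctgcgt
The Cdk4 window holds 4 matches, which begin at -172, -118, -98 and -11 from the start, and the Cdk6 window holds 1, at -220. The Cdk4 start is the first base of the annotated gene, while the Cdk6 window and its start lie inside the annotated gene. Of 32851 windows of this length in the table, 6.02% hold at least 1 such match and 7 windows (0.0213%) hold 4 or more. The windows of both genes are rich in G and C (64.4% and 66.0%, against a median of 52.4%). The E-box was searched, on both strands, together with E2F sites (TTTCCCGC, TTTGGCGC, TTTCGCGC or TTTGCCGC), AP-1 sites (TGANTCA) and GC boxes (GGGCGG), which 1.86%, 6.75% and 32.7% of windows hold, and it was chosen for display after the matches were seen. Neither printed window holds an E2F or AP-1 match, and that of Cdk4 holds 1 GC box.

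Cdk4 was low with LPS, at 7.65, 7.26, 7.43 and 7.67 against 8.08, 8.23 and 8.08 with vehicle. The difference was -0.62 ± 0.13 (SE, adjusted p = 0.001), a 1.54-fold fall, and the groups did not overlap. With SA it differed from OA by 0.04 (95% interval -0.22 to 0.29) at 5 h and by 0.08 (95% interval -0.17 to 0.34) at 20 h. SA at 5 h was above LPS by 0.58 ± 0.12 (SE, adjusted p = 0.000949). The 20 h SA arrays read 8.24, 7.64, 8.37 and 8.38, where the low value is that of replicate 2, the array that stood apart, and without it the difference from OA at 20 h was 0.26 (adjusted p = 0.0766). Myc stood at 8.49 ± 0.10 (SD, n = 3) with vehicle, 7.03 ± 0.15 (SD, n = 4) with LPS, 7.84 ± 0.10 (SD, n = 4) with SA at 5 h and 7.46 ± 0.09 (SD, n = 4) with SA at 20 h. With OA it stood at 8.55 ± 0.14 (SD, n = 4) at 5 h and 8.33 ± 0.05 (SD, n = 4) at 20 h. Its difference of SA from OA at 20 h was -0.87 ± 0.09 (SE, adjusted p = 4.51e-08), where Cdk4 did not pass (adjusted p = 0.767). Whether the E-boxes bear on either gene here was not tested.

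Cdk6 was low with SA at 20 h, at 7.47, 7.46, 7.27 and 7.45. All other arrays, LPS included, ran from 7.96 to 8.69. The difference of SA from OA at 20 h was -0.72 ± 0.09 (SE, adjusted p = 9.11e-07), a 1.65-fold fall. At 5 h it was 0.21 (95% interval 0.03 to 0.40, adjusted p = 0.194), and the change between the times was -0.94 ± 0.12 (SE, adjusted p = 1.53e-05). With SA the gene fell by 0.93 on the log2 scale from 5 h to 20 h (adjusted p = 2.25e-08), while the change with OA was 0.00 (95% interval -0.18 to 0.18). With LPS the 4 arrays lay above the 3 vehicle arrays, at 0.24 (95% interval 0.04 to 0.43, adjusted p = 0.0804), and the call passed with each array centred on its median (adjusted p = 0.0413) or with a variance trend (adjusted p = 0.0326).

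Cdkn1c (probe set 10569429), an imprinted Cip/Kip inhibitor known from cells that leave the cycle, was the 1 gene of the set that rose with SA against OA at the same time. It read 8.16, 7.15, 7.52 and 7.88 on the 20 h SA arrays. With OA at 20 h it read 5.31, 5.65, 5.39 and 5.20, with vehicle 5.45, 5.27 and 5.14, and with LPS 5.36, 5.16, 5.17 and 5.41. The 20 h SA arrays did not overlap any others, and the lowest of them was again replicate 2. The difference of SA from OA at 20 h was 2.29 ± 0.16 (SE, adjusted p = 5.19e-11), a 4.88-fold rise, and 2.46 without replicate 2. At 5 h SA read 5.45, 5.61, 5.96 and 5.83, all above the 4 OA arrays, with a difference of 0.47 (95% interval 0.14 to 0.79, adjusted p = 0.0888) that passed with a variance trend (adjusted p = 0.0491). The difference grew by 1.82 ± 0.22 (SE, adjusted p = 4.09e-06) between the times. LPS differed from vehicle by -0.02 (95% interval -0.37 to 0.33). SA at 5 h was above LPS by 0.44 ± 0.16 (SE, adjusted p = 0.0465), and leaving out any of 6 of the 8 arrays ended this call (adjusted p up to 0.154).

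Cdkn1b (probe set 10542317), the Cip/Kip inhibitor that accumulates when mitogens are withdrawn, differed by time and fell with LPS. It read 7.53, 7.87, 7.79 and 7.74 with LPS against 8.35, 8.21 and 8.21 with vehicle, a difference of -0.52 ± 0.12 (SE, adjusted p = 0.00136). At 20 h it read 8.69, 8.99, 8.72 and 8.62 with OA and 8.73, 9.03, 8.88 and 8.87 with SA, so both acids overlapped at this time (difference 0.12, 95% interval -0.10 to 0.34). On this probe set every 20 h array lay above every 5 h array. From 5 h to 20 h Cdkn1b rose by 0.83 ± 0.11 (SE, adjusted p = 3.06e-06) with SA, and with OA the change was 0.30 (95% interval 0.08 to 0.53, adjusted p = 0.124). Set against the 5 h vehicle, 20 h SA gave 0.62 ± 0.12 (SE, adjusted p = 0.000313) and 20 h OA 0.50 ± 0.12 (SE, adjusted p = 0.00906). Without vehicle replicate 2 or 3 the OA value had an adjusted p of 0.051 or 0.0535.

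SA at 5 h was above LPS by 0.31 ± 0.11 (SE, adjusted p = 0.0395), a call that ended without any of 6 of the 8 arrays (adjusted p up to 0.151).

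A second probe set named for Cdkn1b (10542310) followed the first with a Pearson correlation of 0.86 over the 23 arrays, a description in which all points share the groups. It gave the same direction and call for LPS against vehicle (-0.60 ± 0.14 (SE), adjusted p = 0.00349 over all probe sets) and for SA at 20 h against 5 h (0.63 ± 0.13 (SE), adjusted p = 0.00206). For SA against LPS at 5 h it gave 0.54 ± 0.13 (SE, adjusted p = 0.00474), larger than the 0.31 of the first. For SA against OA at 20 h its sign was the opposite, at -0.10 (adjusted p = 0.783), with neither called. For OA at 20 h against 5 h it passed (0.50 ± 0.13 (SE), adjusted p = 0.0386). On the second probe set the 20 h and 5 h arrays overlapped, with 6.09 on replicate 2 of 20 h SA and 6.15 on replicate 1 of 5 h OA. For SA against OA at 5 h the first probe set gave -0.41 ± 0.11 (SE, adjusted p = 0.0227) and the second -0.23 (adjusted p = 0.486), and the first lost its call in a fit of both groups alone (adjusted p = 0.11) and without replicate 3 of OA (adjusted p = 0.0892) or of SA (adjusted p = 0.113). The interaction of Cdkn1b, 0.53 ± 0.15 (SE, adjusted p = 0.0413), was 0.13 with the second probe set and lost its call when any of 12 of the 16 arrays was left out.

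**Figure D3:**
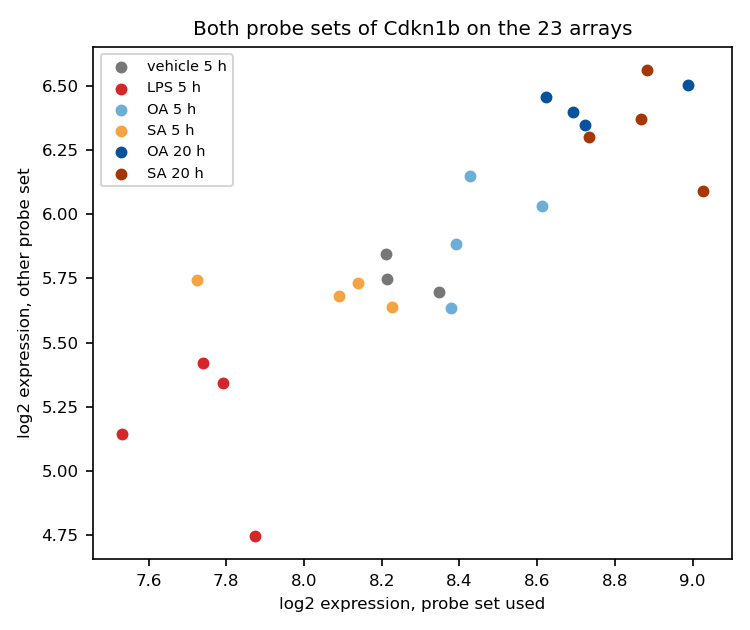
Log2 expression of the 2 Cdkn1b probe sets, the one used (x axis) and the other (y axis), on the 23 arrays, coloured by group. The 8 arrays of 20 h have the 8 highest values on the probe set used, and the 4 LPS arrays have the 4 lowest on the other.

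The INK4 inhibitor Cdkn2c (probe set 10515090) was low with SA and with LPS. It read 4.07, 4.58, 4.22 and 4.15 with LPS against 5.70, 5.49 and 5.82 with vehicle, a difference of -1.41 ± 0.12 (SE, adjusted p = 1.28e-09) or a 2.66-fold fall. With SA it read 5.11, 5.07, 5.06 and 5.23 at 5 h and 4.64, 4.73, 4.33 and 4.81 at 20 h. With OA it read 5.85, 5.85, 5.95 and 5.90 at 5 h and 5.92, 6.01, 5.73 and 6.02 at 20 h. Every SA and LPS array lay below every vehicle and OA array. The difference of SA from OA was -0.77 ± 0.11 (SE, adjusted p = 4.68e-05) at 5 h and -1.29 ± 0.11 (SE, adjusted p = 2.9e-09) at 20 h. Its change between the times was -0.52 (95% interval -0.85 to -0.20, adjusted p = 0.0573) and it passed when the fatty acid groups were fitted by themselves (adjusted p = 0.0422). Against vehicle, SA at 5 h gave -0.55 ± 0.12 (SE, adjusted p = 0.00794, and 0.0732 without replicate 3 of vehicle), and SA at 5 h was above LPS by 0.86 ± 0.11 (SE, adjusted p = 1.35e-06).

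Cdkn2d (probe set 10591517), the other INK4 inhibitor measured, moved little. Its arrays ran from 4.65 to 5.29 over all groups. It fell with LPS against vehicle, at -0.36 ± 0.12 (SE, adjusted p = 0.0261) without overlap, and with SA against OA at 20 h, at -0.36 ± 0.11 (SE, adjusted p = 0.0216) with overlap. The LPS call ended with each array centred on its median (-0.30, adjusted p = 0.0794), after quantile normalisation (-0.27, adjusted p = 0.0988) and without any of 3 of the 7 arrays (adjusted p up to 0.133). Leaving out any of 4 of the 8 arrays at 20 h ended the call between the acids (adjusted p up to 0.0735). At 5 h the acids differed by 0.02 (95% interval -0.20 to 0.24).

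Set against the positive control, LPS moved 6 of the 9 genes at 5 h, 1 higher and 5 lower, where 22.4% of all genes passed, 9.22% higher and 13.2% lower, and its arrays lay apart from vehicle for 7 of the 9 (29.8% of all genes). SA at 5 h moved 3 against the same vehicle arrays (Ccnd1, Ccnd3 and Cdkn2c, all lower), where 3.33% of all genes passed, 1.39% lower and 1.94% higher. The arrays lay apart for those 3 (13.9% of all genes), and without replicate 3 of vehicle Ccnd1 alone passed. These comparisons share the vehicle arrays, so their values stand side by side without a test of their likeness. The direct comparison of SA with LPS at 5 h passed for 7 of the 9, where 22.1% of all genes passed, 13.0% higher and 9.11% lower. Ccnd1, Cdk4, Cdkn1b, Cdkn1c and Cdkn2c were higher with SA, and Ccnd2 and Ccnd3 lower, and the arrays lay apart for 7 of the 9 (22.2% of all genes). In that comparison 6 of 10 neutrophil markers were lower with SA (median -0.32, list mean 5.89 to 6.32 with SA and 6.45 to 6.62 with LPS). Of 12 macrophage markers 3 were lower (median -0.04). For LPS against vehicle 2 of 12 macrophage markers were higher and 3 lower (median -0.18), and 2 of 10 neutrophil markers were higher (median 0.10). For SA against vehicle at 5 h 2 of 12 macrophage markers and 1 of 10 neutrophil markers were lower. The part of these markers was not tested. OA at 5 h passed against vehicle for none of the 9 in limma, also none at an unadjusted p under 0.05, where 14 of all genes (0.0702%) passed, 0.0201% higher and 0.0502% lower. The OA arrays lay above vehicle for Cdkn1b and Cdkn2c, 2 of the 9, and arrays lay apart for 7.02% of all genes.

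Over time with SA, 7 of the 9 changed from 5 h to 20 h, where 12.8% of all genes passed (6.23% higher and 6.57% lower), with Cdkn1b and Cdkn1c higher and Ccnd1, Ccnd2, Ccnd3, Cdk6 and Cdkn2c lower. The arrays of both times lay apart for 6 of the 9 (15.5% of all genes). Over the same interval 7 of 12 macrophage markers fell and 1 rose (median -0.43), with the list mean from 9.50 to 9.57 on the 5 h SA arrays and from 8.997 to 9.13 at 20 h. Of 10 neutrophil markers 5 rose (median 0.28), with the list mean from 5.89 to 6.32 and from 6.47 to 6.65. Their part in the changes was not tested. The fall of Ccnd3 was small, at -0.32 ± 0.10 (SE, adjusted p = 0.0272), and did not pass in a fit of both groups alone (adjusted p = 0.119) or without any of 5 of the 8 arrays (adjusted p up to 0.108). With OA none of the 9 passed over the same interval in limma, 2 at an unadjusted p under 0.05, where 4.38% of all genes passed (2.58% higher and 1.80% lower). Only the Cdkn1b arrays lay apart (11.4% of all genes). With OA 2 of 10 neutrophil markers rose (median 0.26), and of 12 macrophage markers 3 rose and 1 fell (median 0.04). Relative to the early vehicle 8 of 9 passed with 20 h SA, 2 higher and 6 lower, where 15.9% of all genes passed (7.86% higher and 8.02% lower). The arrays lay apart for 7 of the 9 (24.4% of all genes). Ccnd2 was among the 8 at -0.46 ± 0.13 (SE, adjusted p = 0.0135), and Cdkn2d at -0.38 ± 0.12 (SE, adjusted p = 0.0242), and both lost the call without replicate 1 of vehicle (adjusted p = 0.0903 and 0.131). With 20 h OA Cdkn1b alone passed, upward, where 4.70% of all genes passed (2.59% higher and 2.11% lower), and arrays lay apart for 2 of the 9 (17.4% of all genes).

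The genes around the set in the G1 and retinoblastoma pathway were read from a list of 54, of which 53 were measured. With SA against OA at 20 h, 13 were lower and 9 higher (41.5%, against 16.7% of all genes), with a median of -0.04 against 0.03 over all genes, so the list moved both ways. The atypical E2F factors E2f8 and E2f7, which repress E2F targets late in the cycle, gave -1.14 ± 0.13 (SE, adjusted p = 3.42e-07) and -0.72 ± 0.12 (SE, adjusted p = 5.55e-05). With SA at 20 h E2f8 stood at 4.07, under the median of all gene means (4.25), so the size of its fall is less certain. The kinase subunit Cks2 gave -1.003 ± 0.09 (SE, adjusted p = 1.05e-08) and cyclin E2 (Ccne2), a partner of Cdk2, gave -0.92 ± 0.14 (SE, adjusted p = 1.65e-05). Fbxw7, which marks cyclin E and Myc for degradation, rose by 0.69 ± 0.13 (SE, adjusted p = 0.000205). The retinoblastoma gene Rb1 itself gave -0.12 (adjusted p = 0.416) and its relative Rbl1 -0.61 ± 0.10 (SE, adjusted p = 9.99e-05). Cyclin E1 (Ccne1) gave -0.49 (adjusted p = 0.00404), Skp2, which targets Cdkn1b for degradation, -0.43 (adjusted p = 0.0122), E2f1 -0.34 (adjusted p = 0.0522) and Cdk2 -0.36 (adjusted p = 0.0943).

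At 5 h the same list had 5 lower and 6 higher with SA (20.8%, against 5.67% of all genes, median -0.06, against 0.01 over all genes). Myc led the falls at -0.72 ± 0.09 (SE, adjusted p = 4.58e-06), with the Max partner Mxd4 at -0.51 (adjusted p = 0.00177). Rb1 gave -0.37 (adjusted p = 0.00645) and Rbl1 -0.42 (adjusted p = 0.014). Cdkn2b, an INK4 inhibitor outside the set, rose by 0.53 ± 0.13 (SE, adjusted p = 0.0133), the histone methyltransferase Kmt5a by 0.53, Fbxw7 by 0.47 and Cdk7, the kinase that activates other cyclin-dependent kinases, by 0.44. The interaction passed for 4 of the 53 (7.55%, near the 4.98% of all genes), with E2f8, Cks2 and E2f7 the largest, at -0.88, -0.81 and -0.69.

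LPS changed 29 of the 53 against vehicle (54.7%, against 22.4% of all genes), 19 lower and 10 higher, with a median of -0.19 against -0.02. Myc gave -1.46 ± 0.10 (SE, adjusted p = 9.95e-12), Ccne2 -1.13 and Mxd4 -1.08. Tfdp2, a dimerisation partner of E2F factors, and the Max partner Mnt each gave -0.93, and Rb1 gave -0.77 ± 0.09 (SE, adjusted p = 2.89e-07). Rbl1 rose by 0.99 ± 0.11 (SE, adjusted p = 1.78e-07) with LPS, and the direct comparison of SA with LPS at 5 h gave -1.44 ± 0.10 (SE, adjusted p = 5.76e-11) for it.

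**Figure D4:**
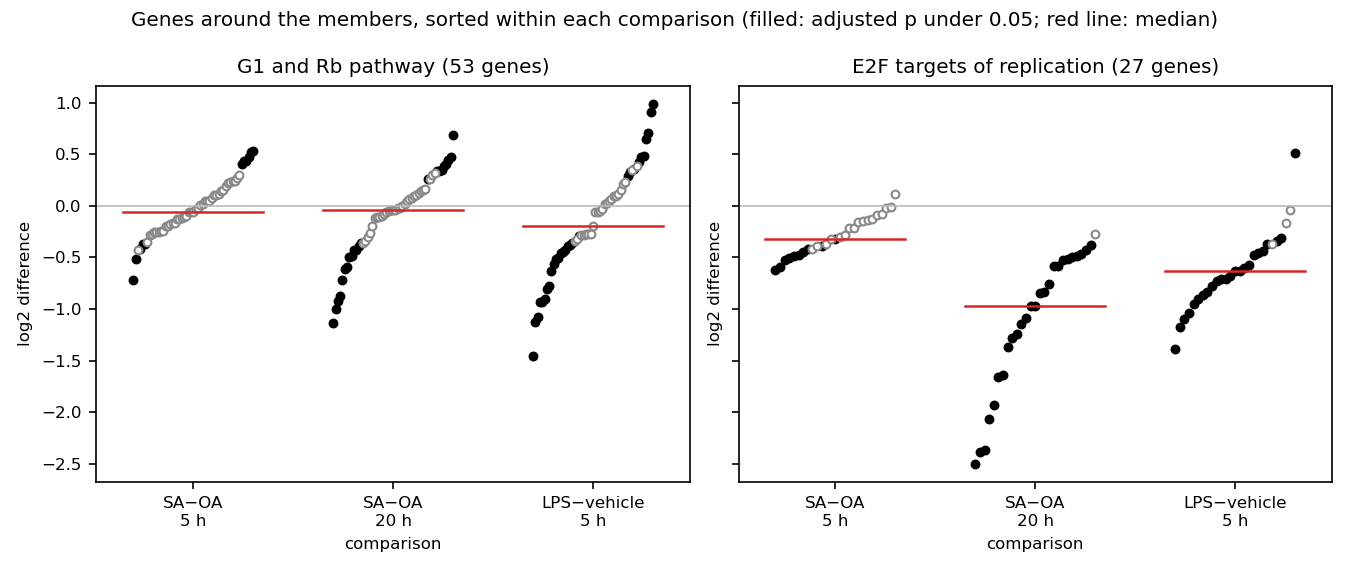
Log2 difference (y axis) of 53 genes of the G1 and retinoblastoma pathway (left) and 27 E2F targets of DNA replication and the cell cycle (right) in 3 comparisons (x axis), sorted from low to high, with the median as a red line. Filled points passed an adjusted p of 0.05. The medians of the left list are -0.06, -0.04 and -0.19, those of the right list -0.32, -0.97 and -0.63.

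Genes downstream of E2F were counted in the same way. This list, like the others, was chosen with earlier results of these data known, so its shares are a description. The list of E2F targets holds genes of DNA replication and also the cell cycle genes Ccna2, Cdk1, Top2a and Mki67. Of its 27 measured genes, 26 fell with SA against OA at 20 h (median -0.97), the exception being Chaf1a (-0.27, adjusted p = 0.0757). At 5 h 10 fell (median -0.32), and none passed upward at either time. For LPS against vehicle, 23 were lower and 1 higher (median -0.63). The shares called were 96.3% at 20 h, 37% at 5 h and 88.9% with LPS, against 16.7%, 5.67% and 22.4% of all genes. Topoisomerase Top2a gave -2.50 ± 0.11 (SE, adjusted p = 1.33e-14) at 20 h and cyclin A2 (Ccna2) -2.39 ± 0.09 (SE, adjusted p = 2.54e-15). The ribonucleotide reductase subunit Rrm2 gave -2.37 ± 0.17 (SE, adjusted p = 1.91e-10) at 20 h and -0.62 (adjusted p = 0.0344) at 5 h. With SA at 20 h Rrm2 stood at 3.67, under the median of all gene means (4.25), so the size of that fall is less certain. Its partner Rrm1 gave -0.60 (adjusted p = 0.000296) and the replicative helicase subunit Mcm6 -0.53 (adjusted p = 0.000161) at 5 h. In bulk samples fewer cycling cells and less RNA per cell cannot be told apart.

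Lists of factors known to act on these genes were read in the same way. Of 26 p53 targets, a list that leaves out Cdkn1a, 6 were higher and 2 lower with SA against OA at 20 h (median 0.12), and 4 higher and 2 lower at 5 h (median 0.06). These are 30.8% and 23.1% of the list, against 16.7% and 5.67% of all genes. The death receptor Fas rose by 0.90 and 1.07 at the 2 times, the kinase Plk3 rose by 0.82 at 20 h and Plk2 by 0.77 at 5 h, while Sesn1 gave -1.02 at 20 h and Btg2 -0.76 at 5 h. Mdm2, also a p53 target, rose by 0.34 (adjusted p = 0.0187) and 0.41 (adjusted p = 0.012) at 20 h and 5 h. Of 20 FoxO factors and targets, 5 were higher and 4 lower at 20 h (median -0.09) and 4 higher and 2 lower at 5 h (median 0.03), which are 45% and 30% of the list. Among them the kinase Sgk1 rose by 1.503 and the ubiquitin ligase Fbxo32 by 1.31 at 20 h, Gadd45b by 1.47 and Fbxo32 by 0.80 at 5 h, and the repressor Bcl6 gave -0.83 and -0.58 at 20 h and 5 h.

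Of 23 measured genes of the M-CSF receptor and growth signal, 10 were lower and 3 higher with SA against OA at 20 h (median -0.18, with 10 not called), and 4 lower and 2 higher at 5 h (median -0.11, with 17 not called). The shares called were 56.5% and 26.1%, against 16.7% and 5.67% of all genes. The receptor Csf1r gave -0.55 ± 0.07 (SE, adjusted p = 1.65e-06) at 20 h and -0.13 (adjusted p = 0.39) at 5 h. Its ligand Csf1 rose by 2.90 ± 0.13 (SE, adjusted p = 3.55e-14) at 20 h and by 1.70 ± 0.13 (SE, adjusted p = 1.76e-09) at 5 h. The largest falls of the list were those of Etv5 at -1.53 and Fos at -1.33 at 20 h, and Dusp6 at -1.07 and Fos at -0.82 at 5 h. The medians of all genes in these comparisons were 0.03 at 20 h and 0.01 at 5 h.

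Levels over the 23 arrays were also compared across genes, as a description in which all points share groups and arrays. The 3 genes with the most similar pattern to Ccnd1 were Stab1, Adam8 and P2ry6 (Pearson correlations of 0.99, 0.99 and 0.99), and to Ccnd2 they were Stat2, Mx1 and Ch25h (0.99, 0.99 and 0.99). Those of Cdkn1c were Hyou1, Creld2 and Nqo1 (0.96, 0.95 and 0.95), those of Cdk6 were Ccl2, Tlr1 and Pik3cg (0.95, 0.94 and 0.94), and those of Ccnd3 were Rin2, Trib1 and Ubash3b (0.96, 0.93 and 0.92). Cdkn2c was most similar to Efr3b, Nlrp1b and Phka2 (0.97, 0.96 and 0.96), Cdkn1b to Cd93, Nabp1 and Smarca2 (0.95, 0.94 and 0.92), Cdk4 to Fbxo28, 2810004N23Rik and 4930404N11Rik (0.91, 0.91 and 0.90), and Cdkn2d to Cenpu, Cenpp and Ska2 (0.80, 0.79 and 0.79). None of the 9 genes was among the 3 most similar to another of them. Within the set, correlations ran from -0.85 between Ccnd1 and Cdkn1c to 0.74 between Ccnd1 and Cdkn2c, and that of Ccnd1 with Ccnd2 was -0.08.

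The labelled cell type was checked on 12 macrophage markers, whose mean lay from 8.997 to 9.87 on single arrays and all of which stood above the median gene in every group. Of these, 8 fell with SA against OA at 20 h (66.7%, median -0.59) and 3 at 5 h (25%, median -0.12). Over all genes 16.7% and 5.67% were called, 8.95% and 2.37% lower, with medians of 0.03 and 0.01. Among the falls were C1qa at -2.65, Fcgr1 at -2.13 and Itgam at -1.05 at 20 h, and Fcgr1 at -1.07, Mertk at -0.82 and Itgam at -0.29 at 5 h. The list mean was 8.997 to 9.13 on the 20 h SA arrays and 9.82 to 9.85 on the 20 h OA arrays, beside the falls of Ccnd1, Ccnd3, Cdk6 and Cdkn2c. Its part in those falls was not tested. Neutrophil markers had a list mean of 5.89 to 6.74 on single arrays, with 7 of 10 above the median gene in every group, S100a8 at 11.20 to 11.53 in the group means and Ly6g at 2.58 to 3.25. None of the 10 passed between the acids at either time in limma, with 0 at 20 h and 2 at 5 h at an unadjusted p under 0.05 (medians -0.02 and -0.11). Markers of dendritic cells (9 genes), lymphocytes (9 measured), erythroid and mast cells (6 measured) and stroma (10) had list means of 2.39 to 3.68 on single arrays. Between the acids Cd79b (-0.50 at 20 h and -0.76 at 5 h) and Pecam1 (-0.59 at 20 h) were the genes of these 4 lists that passed, with list medians up to 0.12 at 20 h and from -0.10 to 0.01 at 5 h. The dendritic cell list had no call at either time, with 1 gene at an unadjusted p under 0.05 each time.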

How the data were processed

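RNA of 23 macrophage samples was hybridised to 1 array each, and expression was deposited by the authors as log2 values. RMA, a method of background correction, quantile normalisation and summary per probe set, and limma are named in the submitters' processing notes; versions are not given in the sources used here. Quantile normalisation forces like distributions on all arrays, so a shift of all genes together would not be seen. Of 35556 probe sets, 21789 name 1 gene, 1621 name several and 12146 are not named in the platform table. Among the single-gene probe sets 21698 matched a RefSeq entry by Entrez ID, none of them under another symbol. The probe set of highest mean was taken per gene (19938 genes).

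Groups came from array titles. limma 3.58.1 (R 4.3.3) fitted a mean per group to all 23 arrays, with p-values, two-sided, adjusted by Benjamini-Hochberg over all 19938 genes per comparison and a call at an adjusted p under 0.05. An unqualified adjusted p is of this fit, and intervals are 95%. Alternatives were a variance trend, median centring, quantile normalisation, array weights, a filter on dim genes, other rules for probe sets, a replicate block, fits restricted to the groups of one comparison and each array left out. The number of arrays limits the precision.

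The genes and lists were chosen with earlier results of these data known. Named from the pathway list were up to 6 called genes of largest change per comparison of SA with OA and of LPS with vehicle, and up to 3 elsewhere. From the other lists up to 3 per comparison of SA with OA were named, besides fixed reference genes (Myc, Csf1r, Ccne1, Ccne2, Cdk2, Rb1, Rbl1, E2f1, Skp2 and Mdm2). Chaf1a was named after its values were seen. Promoter sequences are from RefSeq (GRCm38.p6). Coordinates are printed for the promoter windows shown and for no other sequence. The build of the array annotation is not given in the sources used here. Lists share some genes.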

Additional observations from a re-analysis of the deposited data

Results flagged for a closer look

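For 4 of the 9 genes the difference of SA from OA itself differed between 20 h and 5 h, by limma's interaction term, where 4.98% of all genes passed. The change was -1.97 for Ccnd1, -0.94 for Cdk6, 1.82 for Cdkn1c and 0.53 for Cdkn1b on the log2 scale. The 3 first are large beside their SE of 0.18, 0.12 and 0.22. That of Cdkn1b (SE 0.15) was 0.13 on its second probe set and lost its call without any of 12 of the 16 arrays.

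Single arrays lay far from their group for 2 of 45 gene and group pairs tested, where chance gives about 1 in 20. Cdk6 read 7.27 on replicate 3 of 20 h SA, below the other 3 arrays at 7.45 to 7.47. Ccnd3 read 5.89 on replicate 3 of LPS, above the other 3 at 5.72 to 5.73.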

How the results depend on the processing

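Of 1809 recomputed values of the 9 genes, 1730 stayed on their side of the threshold, 68 lost the call and 11 gained it. The sign turned in 37, all of them not called in either fit. The count of genes called for OA at 20 h against 5 h was 1 with a variance trend, with the probe set of highest variance and with the mean of probe sets, against 0; that gene was Cdkn1b (adjusted p = 0.0424, 0.0182 and 0.00662). With single arrays left out, the count ran from 1 to 3 for SA at 5 h against vehicle (3 with all arrays), from 0 to 1 for 20 h OA against vehicle (1) and from 5 to 6 for SA against LPS (7). Over all genes, OA at 5 h against vehicle gave 14 calls, but 29 with a variance trend, 7 in a fit of both groups alone, and 9 and 7 without vehicle replicate 2 and 3. For 20 h OA against vehicle the count was 1537 with array weights against 937. SA against OA at 5 h gave 660 in a fit of both groups alone against 1131, and SA against vehicle at 5 h gave 373 in such a fit and 389 without vehicle replicate 2, against 664. The cause was not tested, except that fits of compared groups alone hold fewer arrays. With the replicate block the count of genes called for SA against LPS was 6, against 7, with Cdkn1c at an adjusted p of 0.0534, and the count changed in no other comparison. With each array centred on its median 8 of the 9 genes passed the F test. The replicate numbers were not treated as pairing in the main fit. Of 55 pairs of same-numbered arrays 7 had deviations correlating over 0.1 (median 0.02), as against 4 of 165 differently numbered pairs (median -0.003). Same-numbered pairs thus passed 0.1 more often, though most did not. Of the 23 arrays, 10 had their best partner in another group under their own number. Whether the numbers mark a shared preparation was not tested. Signal over background was not assessed, so values near the median gene have the least certain size.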
